A study of Mus musculus with 20 samples.

Results

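Immunity-related GTPases were followed in peripheral blood RNA from a mouse model of systemic lupus erythematosus, an autoimmune disease in which IFN-induced genes are often raised. The 7 genes Irgm1, Irgm2, Igtp, Iigp1, Tgtp1, Tgtp2 and Ifi47 were taken by symbol from a table of 9228 genes, all 7 were listed, and all 7 passed the filter on low values that left 8696 genes for testing. The mice were females of 22 to 23 weeks, 4 of each of 5 genotypes and 20 in all. Lyn-/-Ifnar1-/- mice lacked the kinase Lyn and a chain of the type I IFN receptor. Lyn-/-Irf5-/- and Lyn-/-Irf5+/- mice lacked Lyn and both copies or 1 copy of the transcription factor Irf5. Lyn-/- mice lacked Lyn alone, and this deletion was carried by each of the 4 mutant genotypes. All of these are germline alleles on a C57BL/6 background, so the loss was not limited to blood cells, while WT mice were bought from a breeder, and the source of the mice and the Lyn genotype cannot be told apart. Each library came from a different mouse.

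Immunity-related GTPases are IFN-inducible GTP-binding proteins of the mouse that act against pathogens living in vacuoles, such as Toxoplasma gondii and Chlamydia. Effector members load onto the vacuole membrane and break it. Regulatory members sit on the cell's own membranes, hold the effectors in an inactive state there and are tied to autophagy. The regulatory members are Irgm1, Irgm2 and Igtp (the protein Irgm3), and the effectors are Iigp1 (Irga6), Tgtp1 and Tgtp2 (both Irgb6) and Ifi47 (Irgd). IFN-γ is their best-known inducer, and type I IFN can induce them as well. The comparison of Lyn-/-Ifnar1-/- with Lyn-/- mice therefore bears on how much of their RNA in blood went with the type I IFN receptor.

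All of the genes but Iigp1 sit in 2 groups on chromosome 11 (GENCODE annotation of GRCm38). Irgm1 (chr11:48861968-48871683, minus strand), Tgtp1 (chr11:48985327-48994172, minus strand), Tgtp2 (chr11:49057194-49064206, minus strand) and Ifi47 (chr11:49076587-49096974, plus strand) lie within 235 kb. Igtp (chr11:58199556-58207591) and Irgm2 (chr11:58199618-58222782) are neighbours on the plus strand. Their gene models overlap in GENCODE and not in RefSeq, where Irgm2 starts at 58214977.

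The stretches around the start sites are shown because most of these promoters share letters known as response elements of IFN signalling. RefSeq promoter sequence (GRCm38.p6, 250 bases before to 50 after the start) was matched for 6 of the 7 genes. The core of the IFN-stimulated response element, searched on both strands as 2 copies of GAAA with any 2 bases between them, was found in 5 of the 6 and in 3.44% of all 32851 promoters of that length. The IFN-γ-activated sequence, searched as TTCNNNGAA, which reads alike on both strands, was found in 4 of the 6 and in 8.30% of all promoters. In Irgm2, Igtp, Tgtp1 and Tgtp2 the IFN-γ-activated sequence ended 2 bases before the response element. This joined form was searched after the sequences had been read and was found in 5 promoters of 32851, those 4 and that of Gm12185, an unnamed gene model that overlaps Tgtp1. The Ifi47 promoter held neither motif. In the lines that follow, capitals mark the motifs, each line is written 5′ to 3′ along the gene's strand, and the motif letters do not overlap other than within the Irgm1 pair.
Irgm1 (chr11:48871420-48871465, minus strand): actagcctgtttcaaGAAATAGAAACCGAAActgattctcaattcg
Irgm2 (chr11:58214887-58214937, plus strand): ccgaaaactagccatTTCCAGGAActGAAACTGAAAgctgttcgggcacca
Igtp (chr11:58199496-58199546, plus strand): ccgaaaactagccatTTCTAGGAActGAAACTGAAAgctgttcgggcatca
Tgtp1 (chr11:48992299-48992349, minus strand): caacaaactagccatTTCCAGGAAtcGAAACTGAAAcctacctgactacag
Tgtp2 (chr11:49064258-49064308, minus strand): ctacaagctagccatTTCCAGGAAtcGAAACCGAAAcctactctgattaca
The first base of the response element stood 30 bases before the start in Irgm1, 64 in Irgm2, 34 in Igtp, 77 in Tgtp1 and 70 in Tgtp2. A match describes these letters only, and binding was not measured here.

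Values are RPKM, read counts divided by gene length and by the size of the library, scaled between libraries by the authors. From the steps between low values, whole reads were recovered for 9222 genes, taken as the smallest whole numbers that keep the steps of each library, and the libraries held 812981 to 1863323 such reads. The median was lowest in Lyn-/-Irf5+/- mice, at 1037950 reads, against 1348760 to 1617650 in the other genotypes. The Lyn-/-Irf5+/- samples are numbered apart from the rest of the series, and whether they were prepared apart is not stated. Lyn stood at 2.42 to 13.8 RPKM in the mutant mice and at 32.4 to 36.9 RPKM in WT mice. Irf5 stood at 35.1 to 40.8 RPKM in mice labelled Lyn-/-Irf5-/-, 25.4 to 33.5 RPKM in Lyn-/-Irf5+/- mice, 27.8 to 40.4 RPKM in Lyn-/- mice and 20.1 to 21.7 RPKM in WT mice. Ifnar1 stood at 6.23 to 10.6 RPKM in mice labelled Lyn-/-Ifnar1-/- and at 5.08 to 6.17 RPKM in Lyn-/- mice. Neither RNA was lower in the mice labelled as lacking the gene, and since a value over the whole gene does not show whether its deleted part was read, these labels could not be checked. Of the cell type lists, B cell markers (Ms4a1, Cd79a, Cd79b and Pax5) summed to 40.1 to 61.1 RPKM in Lyn-/- mice against 389 to 516 RPKM in WT mice. Hemoglobin genes took 55.5% to 78.9% of the summed RPKM. Fewer cells of a type and less RNA per cell cannot be told apart in such bulk samples. Lyn-/-Ifnar1-/- mice 3 and 4 differed from the others of their genotype in erythroid markers (Alas2, Slc4a1 and Tspan33), which summed to 87070 and 47950 RPKM, against 23829 and 15912 RPKM in mice 1 and 2 of that genotype.

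Per length, Igtp was the most abundant of the 7 genes at a mean of 46.6 RPKM over the 20 mice and a range of 28.3 to 90.6 RPKM. Irgm1 averaged 12.4 RPKM and Iigp1 2.39 RPKM. Igtp ranked above 93.1% of the listed genes by mean level, Irgm1 above 79.8% and Iigp1 above 34.6%. Iigp1 and Tgtp2 had the widest spans, with the highest mouse 14.8 times the lowest in both, while this factor was 3.94 for Irgm1 and 3.01 for Irgm2. The reads behind these levels differed widely, from 155 to 446 per mouse for Igtp to 3 to 65 per mouse for Iigp1. Tgtp1 and Tgtp2 are near-identical copies. Of the 75-base stretches of their transcripts, 77.2% in Tgtp1 and 81.4% in Tgtp2 also occur in another gene, so the division of reads between them is uncertain. That share was 7.80% in Igtp, 4.78% in Irgm2, 2.82% in Ifi47 and 0 in Irgm1 and Iigp1.

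**Figure D1:**
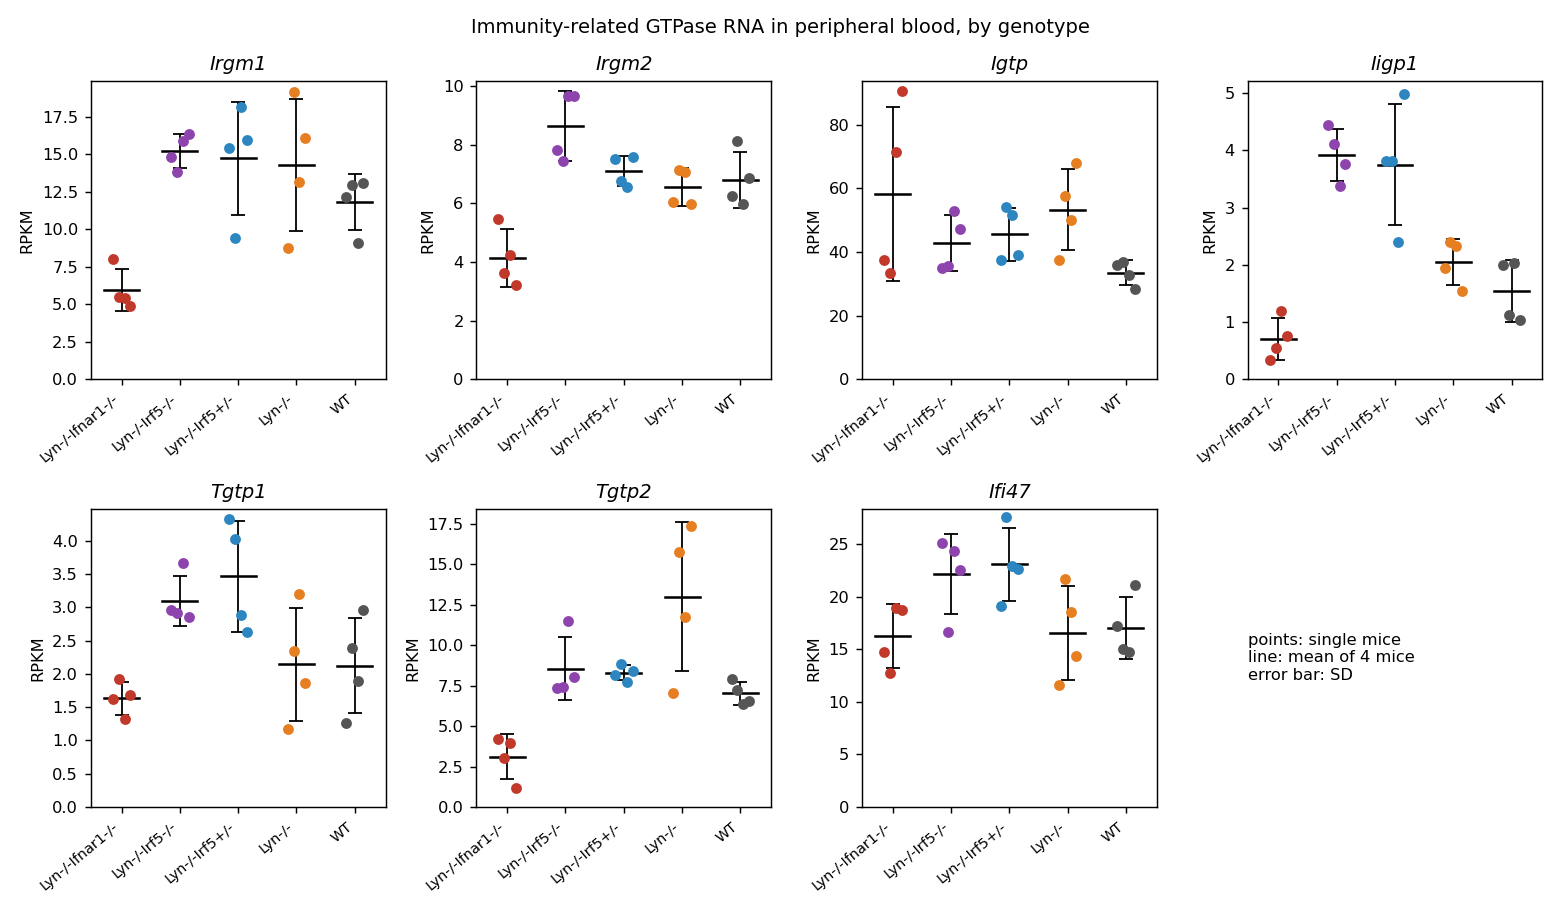
RPKM of each gene (vertical axes, linear, from 0) in each mouse (points) by genotype, with the mean of 4 mice and its SD. Irgm1, Irgm2, Iigp1 and Tgtp2 lay lower in all 4 Lyn-/-Ifnar1-/- mice than in all 4 Lyn-/- mice, while Igtp, Tgtp1 and Ifi47 overlapped between these genotypes.

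In Lyn-/-Ifnar1-/- mice compared with Lyn-/- mice, 4 of the 7 genes were lower and none was higher at a limma adjusted p under 0.05. These were the regulatory genes Irgm1 and Irgm2 and the effector genes Iigp1 and Tgtp2. Igtp, Tgtp1 and Ifi47 were not called. Over all 8696 genes, 6.69% were called in this comparison, 3.96% as lower and 2.74% as higher. The values of the 4 called genes did not overlap between the genotypes, as held for 9% of all genes. The median log2 fold change of the 7 genes was -0.62, beside 0.02 over all genes.

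Irgm1, a regulator that protects mice against mycobacteria and is tied to autophagy, stood at 8.0, 5.51, 5.43 and 4.86 RPKM in Lyn-/-Ifnar1-/- mice and at 8.78, 19.2, 13.2 and 16.1 RPKM in Lyn-/- mice. The groups did not overlap, but the highest Lyn-/-Ifnar1-/- mouse was close to Lyn-/- mouse 1, the lowest of its group. The fitted log2 fold change was -1.17 ± 0.22 (SE, limma adjusted p = 0.0028). Irgm2, its close relative, stood at 5.47, 3.63, 4.23 and 3.22 RPKM in Lyn-/-Ifnar1-/- mice and at 6.04, 7.14, 7.07 and 5.97 RPKM in Lyn-/- mice. Again all 4 Lyn-/-Ifnar1-/- mice were below all 4 Lyn-/- mice. Its log2 fold change was smaller, -0.62 (SE 0.15, limma adjusted p = 0.0165). This call was lost without Lyn-/- mouse 2 (adjusted p = 0.0527) or Lyn-/-Ifnar1-/- mouse 4 (adjusted p = 0.0567). It was also lost with both Lyn-/-Ifnar1-/- mice 3 and 4 left out (-0.50, limma adjusted p = 0.0720). In Lyn-/-Ifnar1-/- mouse 3 Irgm1 rested on 13 reads and Irgm2 on 16.

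Igtp, the third regulator and the most abundant of them, was not called. It stood at 37.5, 33.4, 71.2 and 90.6 RPKM in Lyn-/-Ifnar1-/- mice and at 37.6, 57.6, 50.1 and 67.8 RPKM in Lyn-/- mice. The genotypes overlapped, and Lyn-/-Ifnar1-/- mice 3 and 4 held the highest values of all 20 mice. The fitted log2 fold change was 0.03 ± 0.26 (SE, 95% interval -0.53 to 0.59, limma adjusted p = 0.959), and without these 2 mice it was -0.55. With libraries set to the same RPKM sum it was -0.18 (limma adjusted p = 0.991). The reads behind the 4 Lyn-/-Ifnar1-/- values were 217, 275, 155 and 389. Mouse 3 had the fewest, in a library of 1123205 reads against 1167049 in mouse 1, so its high RPKM rests on the scaling between libraries.

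Among the effectors, Iigp1 (chr18:60376027-60392634, plus strand, GRCm38), which is known for its recruitment to the Toxoplasma vacuole, stood at 0.336, 0.551, 1.19 and 0.754 RPKM in Lyn-/-Ifnar1-/- mice and at 1.94, 2.40, 2.32 and 1.54 RPKM in Lyn-/- mice. The groups did not overlap. Each Lyn-/-Ifnar1-/- value rested on 3 to 7 reads, against 11 to 22 reads per Lyn-/- mouse. The fitted log2 fold change was -1.11 ± 0.23 (SE, limma adjusted p = 0.0058). The pseudocount of 0.5 makes this smaller than the ratio of the mean RPKM values, 0.345.

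Tgtp2 showed the largest difference of the 7 genes. It stood at 4.22, 3.05, 3.96 and 1.17 RPKM in Lyn-/-Ifnar1-/- mice and at 7.04, 15.8, 11.8 and 17.4 RPKM in Lyn-/- mice. All Lyn-/-Ifnar1-/- mice were below all Lyn-/- mice, and the fitted difference was -1.94 ± 0.28 on the log2 scale (SE, limma adjusted p = 0.0002). The Lyn-/-Ifnar1-/- values of Tgtp2 rested on 34, 35, 12 and 7 reads, against 72 to 112 reads per Lyn-/- mouse. Tgtp1, its copy, stood at 1.62, 1.92, 1.32 and 1.68 RPKM in Lyn-/-Ifnar1-/- mice and at 1.18, 2.35, 3.19 and 1.87 RPKM in Lyn-/- mice. These values overlapped, and the fitted log2 fold change was -0.26 ± 0.23 (SE, limma adjusted p = 0.534). The sum of both copies, which does not depend on how reads were divided between them, stood at 2.85 to 5.84 RPKM in Lyn-/-Ifnar1-/- mice and 8.22 to 19.2 RPKM in Lyn-/- mice. The sums differed by -1.55 ± 0.34 (SE) on the log2 scale, with p = 0.0286 in a two-sided exact permutation, which is as low as 4 mice a side can give.

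Ifi47, an effector that mice need to resist Toxoplasma, stood at 14.8, 12.7, 18.9 and 18.7 RPKM in Lyn-/-Ifnar1-/- mice and at 11.6, 21.6, 18.5 and 14.3 RPKM in Lyn-/- mice. The mice of both genotypes were fully interspersed. The fitted log2 fold change was -0.003 ± 0.20 (SE, 95% interval -0.42 to 0.41, limma adjusted p = 0.995).

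**Figure D2:**
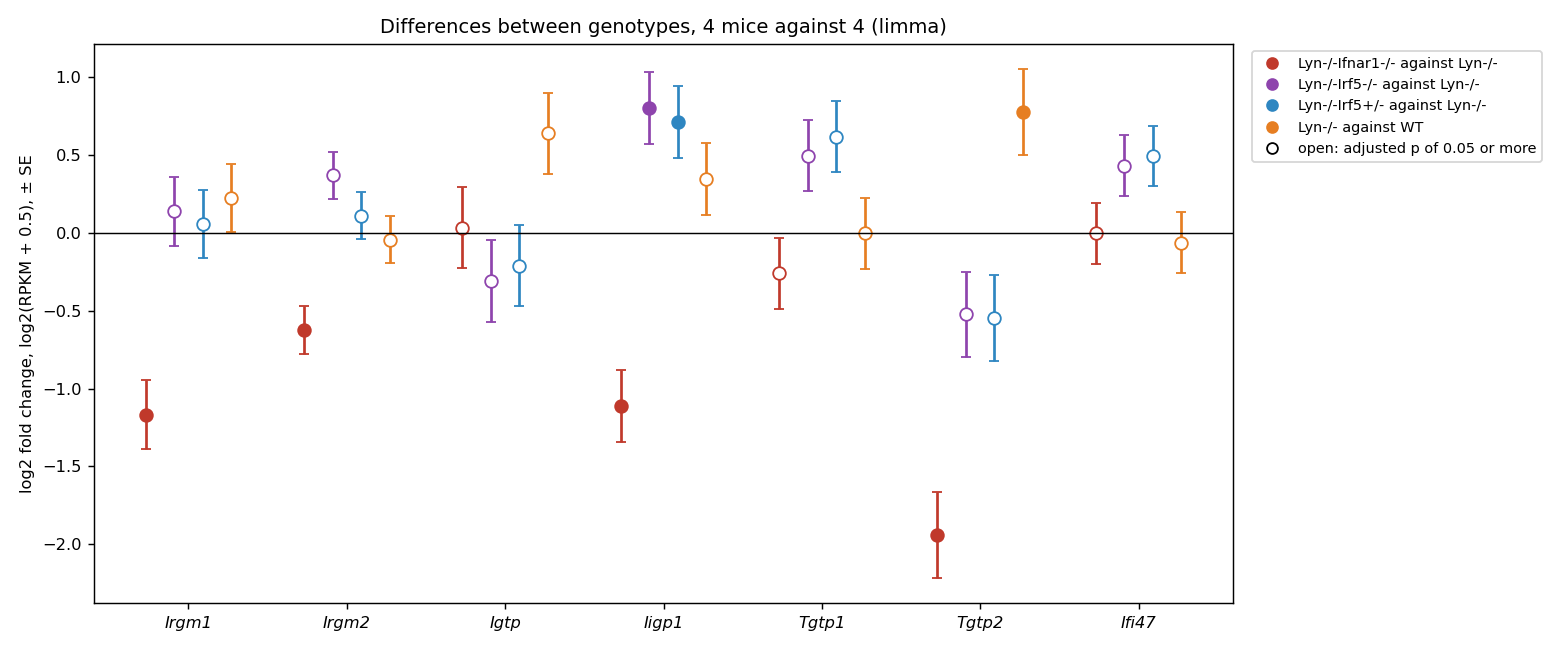
Log2 fold change on the log2(RPKM + 0.5) scale with its SE (vertical axis) for each gene (horizontal axis) in 4 comparisons of 4 mice against 4, filled where the limma adjusted p was under 0.05. In Lyn-/-Ifnar1-/- against Lyn-/- mice 4 genes were called as lower (-0.62 to -1.94) and Igtp and Ifi47 lay near 0. In the Irf5 genotypes against Lyn-/- mice Iigp1 alone was called, as higher in both, and uncalled genes also lay above 0.

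Whether the genes differed among themselves was tested on ratios within each library. The ratios printed here are plain RPKM ratios, which no scaling of a library can move. The tests used the log2 ratio with the pseudocount of 0.5 added to each RPKM. Scaling a library can move that tested ratio, most where values are low. Igtp held 6.85, 9.19, 16.8 and 28.2 times the RPKM of Irgm2 in Lyn-/-Ifnar1-/- mice, against 6.23, 8.08, 7.09 and 11.4 times in Lyn-/- mice, and the genotypes overlapped. Tgtp2 held 2.61, 1.59, 2.99 and 0.70 times the RPKM of Tgtp1 in Lyn-/-Ifnar1-/- mice, against 5.99, 6.72, 3.68 and 9.31 times in Lyn-/- mice, with no overlap. Ifi47 held 1.84, 2.30, 3.49 and 3.85 times the RPKM of Irgm1 in Lyn-/-Ifnar1-/- mice, against 1.32, 1.13, 1.41 and 0.89 times in Lyn-/- mice, again with no overlap. Of the 21 pairs, 8 reached the smallest exact permutation p of 0.0286 in this comparison, and none passed after Benjamini-Hochberg adjustment over the pairs (adjusted p = 0.075).

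The calls of Irgm1, Irgm2 and Iigp1 in Lyn-/-Ifnar1-/- against Lyn-/- mice depended on the scaling and on the model. With libraries set to the same RPKM sum, Tgtp2 alone was called, and likewise with the same sum outside the hemoglobin genes or with only these 2 genotypes in the model. All 4 genes stayed lower in each of these, with log2 fold changes of -1.13 to -1.35 for Irgm1 (limma adjusted p = 0.0735 to 0.0978), -0.59 to -0.80 for Irgm2 (0.189 to 0.544) and -1.09 to -1.28 for Iigp1 (0.0601 to 0.0944).

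Lyn-/-Ifnar1-/- mice were also set against both Irf5 genotypes. These comparisons share the Lyn-/-Ifnar1-/- mice with the one above. Against Lyn-/-Irf5-/- mice 4 genes were lower (4.01% of all genes called, 2.06% as lower and 1.95% as higher) and against Lyn-/-Irf5+/- mice 5 genes were lower (4.54% of all genes called, 2.41% as lower and 2.13% as higher), with none higher in either. Iigp1 differed most, with 3.37 to 4.44 RPKM in Lyn-/-Irf5-/- mice and a log2 fold change of -1.91 (SE 0.23) for Lyn-/-Ifnar1-/- against them. Irgm1 differed by -1.31, Irgm2 by -0.99 and Tgtp2 by -1.41 on the log2 scale, and no mouse of either genotype overlapped for these 4 genes or for Tgtp1 (11% of all genes did not overlap). Against Lyn-/-Irf5+/- mice the log2 fold changes were -1.22 for Irgm1, -0.73 for Irgm2, -1.83 for Iigp1, -0.88 for Tgtp1 and -1.39 for Tgtp2. In that comparison 6 of the 7 genes, all but Igtp, did not overlap (8.44% of all genes). The Tgtp1 call (limma adjusted p = 0.0335) was the weakest of these and was lost on leaving out any of 5 single mice. With Lyn-/-Ifnar1-/- mice 3 and 4 left out, 2 of the 5 calls against Lyn-/-Irf5+/- mice held. With the same RPKM sum or only these 2 genotypes in the model, 1 held.

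Between Lyn-/-Irf5-/- and Lyn-/-Irf5+/- mice none of the 7 genes was called, and neither was any of the 8696 genes (0% called by limma, and none by limma-voom on the recovered reads). An unadjusted p under 0.05 was reached by 714 of all genes and by none of the 7. All 7 overlapped between the genotypes, while 8.03% of all genes did not. Irgm1 averaged 15.2 ± 1.14 RPKM in Lyn-/-Irf5-/- mice and 14.7 ± 3.76 RPKM in Lyn-/-Irf5+/- mice (SD, 4 mice each). Ifi47 averaged 22.2 ± 3.84 RPKM in Lyn-/-Irf5-/- mice and 23.1 ± 3.46 RPKM in Lyn-/-Irf5+/- mice (SD, 4 mice each). These differences were smaller than the spread between mice.

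Against Lyn-/- mice, Iigp1 was the single gene of the 7 that was called in either Irf5 genotype, and it was higher. It stood at 4.44, 4.11, 3.37 and 3.76 RPKM in Lyn-/-Irf5-/- mice and at 3.81, 3.81, 2.39 and 4.98 RPKM in Lyn-/-Irf5+/- mice, against 1.94, 2.40, 2.32 and 1.54 RPKM in Lyn-/- mice. All Lyn-/-Irf5-/- mice were above all Lyn-/- mice, which held also for Irgm2 (22.3% of all genes did not overlap), and Lyn-/-Irf5+/- mouse 3 overlapped with them (17.9% of all genes did not). The log2 fold change was 0.80 for Lyn-/-Irf5-/- mice (SE 0.23, limma adjusted p = 0.0232) and 0.71 for Lyn-/-Irf5+/- mice (SE 0.23, limma adjusted p = 0.0420). Over all genes, 13.9% were called in Lyn-/-Irf5-/- mice (5.36% higher, 8.58% lower) and 14.6% in Lyn-/-Irf5+/- mice (6.12% higher, 8.46% lower) against Lyn-/- mice, so 1 gene of 7 is near the background. The call in Lyn-/-Irf5-/- mice was lost without Lyn-/- mouse 4 (adjusted p = 0.0822) or without Lyn-/-Irf5-/- mouse 1 (adjusted p = 0.0737) or mouse 2 (adjusted p = 0.0588). That in Lyn-/-Irf5+/- mice was lost on leaving out any of 10 single mice, and also with a pseudocount of 0.1 (adjusted p = 0.0722).

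None of the other genes was called in the Irf5 genotypes, and the side of Lyn-/- mice on which Tgtp2 and Igtp lay in Lyn-/-Irf5-/- mice depended on the scaling. Tgtp2 averaged 8.55 ± 1.97 RPKM in Lyn-/-Irf5-/- mice, 8.29 ± 0.459 RPKM in Lyn-/-Irf5+/- mice and 12.99 ± 4.62 RPKM in Lyn-/- mice (SD, 4 mice each, limma adjusted p = 0.227 and 0.194 against Lyn-/- mice). Tgtp1 averaged 3.10 ± 0.377 RPKM in Lyn-/-Irf5-/- mice, 3.47 ± 0.834 RPKM in Lyn-/-Irf5+/- mice and 2.15 ± 0.848 RPKM in Lyn-/- mice (SD, 4 mice each, limma adjusted p = 0.161 and 0.0728). The sum of the copies stood at 10.3 to 15.1 RPKM, 10.6 to 12.9 RPKM and 8.22 to 19.2 RPKM in these 3 genotypes, all overlapping. With libraries set to the same RPKM sum outside the hemoglobin genes, 4 of the 7 genes were called as higher in Lyn-/-Irf5-/- than in Lyn-/- mice, Iigp1, Irgm2, Tgtp1 and Ifi47. Under it Tgtp2 and Igtp, at log2 fold changes of -0.52 and -0.31 in the main model, turned to 0.14 and 0.38, and with libraries set to the same RPKM sum over all genes they turned to 0.002 and 0.23, none of these called. The scaling outside the hemoglobin genes moved the median of all genes by 0.59 on the log2 scale in this comparison, and the one over all genes moved it by 0.48.

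In Lyn-/- mice compared with WT mice, Tgtp2 was the single gene called (higher), while 32.5% of all genes were called, 17.1% as higher and 15.5% as lower. The median log2 fold change of the 7 genes was 0.22, beside -0.03 over all genes. Tgtp2 stood at 7.04, 15.8, 11.8 and 17.4 RPKM in Lyn-/- mice and at 7.88, 7.24, 6.38 and 6.56 RPKM in WT mice. Lyn-/- mouse 1 lay within the WT range and the other 3 lay above it, and the fitted difference was 0.77 ± 0.28 on the log2 scale (SE, limma adjusted p = 0.0372). The call was lost on leaving out any single mouse of either genotype other than Lyn-/- mouse 1 (adjusted p = 0.0516 to 0.127), with a pseudocount of 0.1 and under both sum scalings. The sum of Tgtp1 and Tgtp2, at 8.22 to 19.2 RPKM in Lyn-/- mice and 8.27 to 9.63 RPKM in WT mice, overlapped between the genotypes (difference 0.63 ± 0.27 SE on the log2 scale, exact permutation p = 0.143).

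Igtp stood at 37.6, 57.6, 50.1 and 67.8 RPKM in Lyn-/- mice and at 36.0, 36.9, 32.7 and 28.3 RPKM in WT mice. All Lyn-/- mice were above all WT mice, while 35% of all genes did not overlap between these genotypes in one direction or the other. The fitted log2 fold change was 0.64 ± 0.26 (SE, limma adjusted p = 0.0673). It passed with only these 2 genotypes in the model (adjusted p = 0.0195) and with limma-voom on the recovered reads (adjusted p = 0.0423). Igtp was not called with libraries set to the same RPKM sum, over all genes or outside the hemoglobin genes. WT mouse 1 held 328 Igtp reads of 1653948, against 276 of 1657126 in Lyn-/- mouse 1. The separation of all Lyn-/- from all WT mice in Igtp RPKM therefore rests on the scaling between libraries. Irgm1 (log2 fold change 0.22, SE 0.22), Irgm2 (-0.04, SE 0.15), Iigp1 (0.35, SE 0.23), Tgtp1 (-0.002, SE 0.23) and Ifi47 (-0.06, SE 0.20) were not called (limma adjusted p of 0.254 to 0.995). By RPKM, Lyn-/- mouse 1 had the lowest Irgm1, Igtp, Tgtp1, Tgtp2 and Ifi47 of the 4 Lyn-/- mice. For Ifi47 this rank rests on the scaling, with 85 of 1657126 reads in mouse 1 and 66 of 1863323 in mouse 4. The neutrophil markers of mouse 1 (S100a8, S100a9, Csf3r, Cxcr2 and Retnlg) summed to 7409 RPKM, against 1299 to 2764 RPKM in the other Lyn-/- mice, and their part in the result was not tested.

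The remaining comparisons use the same WT mice. In Lyn-/-Ifnar1-/- against WT mice Irgm1 (log2 fold change -0.94), Irgm2 (-0.67), Iigp1 (-0.77) and Tgtp2 (-1.16) were lower and none was higher (21.3% of all genes called, 9.61% as lower and 11.7% as higher). Irgm1, Irgm2 and Tgtp2 did not overlap (22.2% of all genes). The Iigp1 values overlapped, with 0.336 to 1.19 RPKM in Lyn-/-Ifnar1-/- mice and 1.03 to 2.02 RPKM in WT mice. Its call was lost without WT mouse 1 (adjusted p = 0.0807), WT mouse 3 (adjusted p = 0.0705) or Lyn-/-Ifnar1-/- mouse 1 (adjusted p = 0.0600). Iigp1 alone was called in Lyn-/-Irf5-/- against WT mice (log2 fold change 1.15, 10.7% of all genes called, 7% as higher and 3.7% as lower) and in Lyn-/-Irf5+/- against WT mice (1.06, 10.5% of all genes called, 4.98% as higher and 5.49% as lower), and it was higher in both. Without overlap were Iigp1 and Irgm1 in Lyn-/-Irf5-/- mice (26.4% of all genes) and Iigp1 and Igtp in Lyn-/-Irf5+/- mice (19.7% of all genes). Leaving out any single mouse kept these 2 calls. That in Lyn-/-Irf5+/- mice was lost with libraries set to the same RPKM sum (0.67, limma adjusted p = 0.333). It was also lost with the same sum outside the hemoglobin genes (0.86, limma adjusted p = 0.138).

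The genotypes ranked in different orders from gene to gene, and these ranks were not compared by a test. Iigp1 had its highest means in the Irf5 genotypes (3.92 and 3.75 RPKM), then Lyn-/- (2.05 RPKM), WT (1.54 RPKM) and Lyn-/-Ifnar1-/- mice (0.708 RPKM), and of the neighbours in this order the Irf5 genotypes did not differ from each other, nor Lyn-/- from WT mice, at the threshold. Tgtp2 had its highest mean in Lyn-/- mice (12.99 RPKM), with the Irf5 genotypes (8.55 and 8.29 RPKM) and WT mice (7.01 RPKM) next and Lyn-/-Ifnar1-/- mice last (3.10 RPKM). Ifi47 ran from 16.3 to 23.1 RPKM in its genotype means, and no comparison of Ifi47 passed the threshold. The genotype means of Igtp spanned 33.5 to 58.2 RPKM, highest in Lyn-/-Ifnar1-/- and lowest in WT mice, and no comparison of Igtp passed it either.

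**Figure D3:**
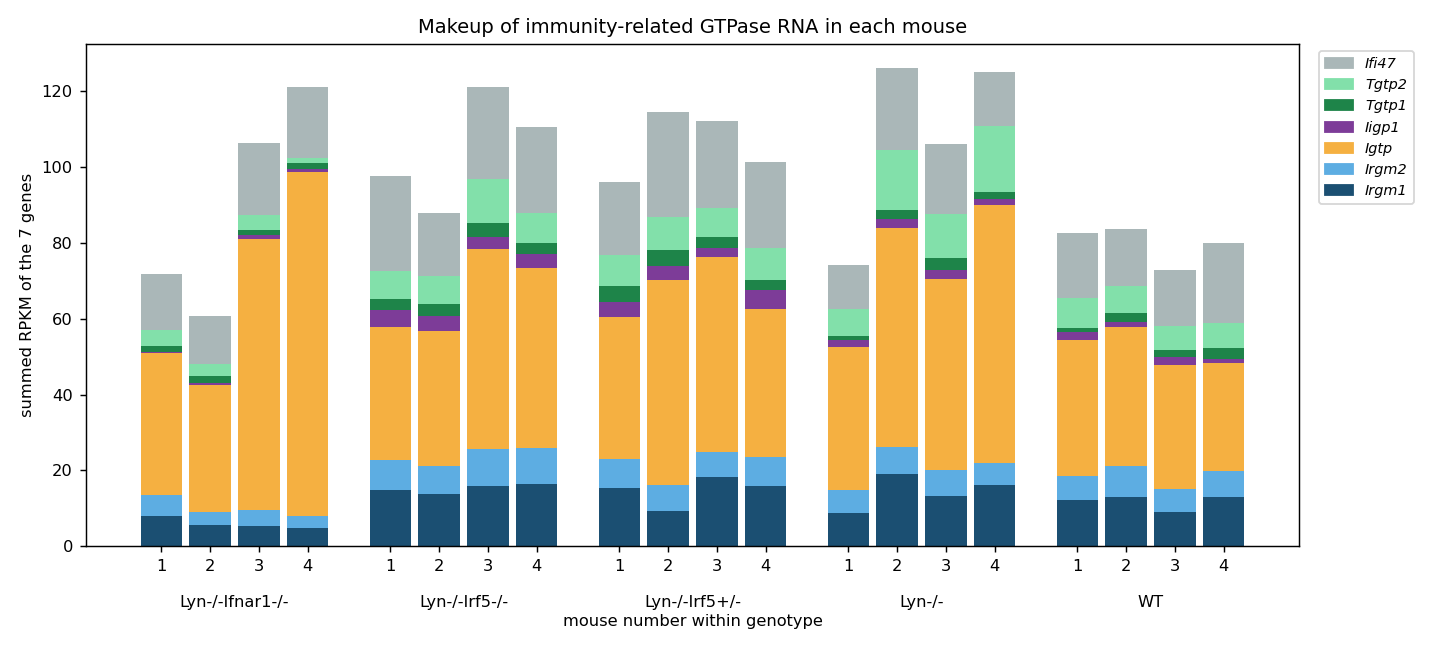
Summed RPKM of the 7 genes (vertical axis) in each mouse (bars, numbered within genotype), divided by gene. Igtp made up 52.1% to 74.9% of the sum in Lyn-/-Ifnar1-/- mice, against 45.7% to 54.3% in Lyn-/- mice, while the range in WT mice was 35.4% to 44.9%.

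As a share of the summed RPKM of the 7 genes, Igtp made up 52.1% to 74.9% in Lyn-/-Ifnar1-/- mice, 36.0% to 43.5% in Lyn-/-Irf5-/- mice, 38.6% to 47.2% in Lyn-/-Irf5+/- mice, 45.7% to 54.3% in Lyn-/- mice and 35.4% to 44.9% in WT mice. The sum itself averaged 89.98 ± 28.3 RPKM in Lyn-/-Ifnar1-/- mice and 107.9 ± 24.2 RPKM in Lyn-/- mice, against 79.8 ± 4.95 RPKM in WT mice (SD, 4 mice each).

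Over the 20 mice, Irgm1 moved with Irgm2 (Pearson r = 0.86 on log2 values) and with Tgtp2 (r = 0.83). Within genotypes these correlations were 0.54 and 0.56. Over the 20 mice Igtp stood apart, with r of -0.33 to 0.24 against each of the other 6 genes. Within genotypes, however, Igtp had r = 0.53 with Ifi47, and -0.16 to 0.17 with the rest. These values describe 20 libraries that share genotypes, and no test was made of them. Both genes of a pair carry the scaling of their library, and no other scaling was used for these correlations. The genes outside the 7 whose levels were most like their mean z-score were Ifit3 (r = 0.85), Phf11b (0.84), Ifi27l2a (0.84), Ifi205 (0.84), Mnda (0.83), Mx1 (0.83), Pydc4 (0.81) and Oas2 (0.81), and within genotypes r ran from 0.02 for Oas2 to 0.44 for Pydc4. For Igtp alone the most alike genes were Rnf19b (r = 0.93), a ubiquitin ligase, B2m (0.92), the light chain of MHC class I, and Ap3s1 (0.92), an adaptor subunit, and within genotypes these 3 stayed at 0.91 to 0.93.

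Igtp also moved with platelet and erythroid markers. Platelet markers (Pf4, Ppbp, Itga2b and Gp9) summed to 2256, 2450, 4802 and 6900 RPKM in Lyn-/-Ifnar1-/- mice, in which Igtp stood at 37.5, 33.4, 71.2 and 90.6 RPKM. Over the 20 mice the log2 levels of Igtp and the platelet sum had r = 0.81 (permutation p = 4e-05) and Spearman's rho = 0.65 (permutation p = 0.0027). Without the 2 mice farthest from the median platelet sum, Lyn-/-Ifnar1-/- mice 4 and 3, r was 0.61. Within genotypes r was 0.94, and 0.85 without these 2 mice. With erythroid markers Igtp had r = 0.69 (permutation p = 0.00081) and rho = 0.62 (permutation p = 0.0045), and r was 0.56 without the 2 farthest mice, Lyn-/-Ifnar1-/- mouse 3 and Lyn-/- mouse 4, and 0.76 within genotypes. These were chosen for mention after 77 relations of 7 genes with 11 marker lists had been computed, and over that family the adjusted p was 0.0015 for platelets and 0.0125 for erythroid markers. The permutations shuffled all 20 mice across genotypes, so these p values do not set aside differences between genotypes. Both levels in a relation also carry the scaling of their library, which can move them together. No relation was computed under another scaling. The part of platelets and erythroid cells in the Igtp values was not tested.

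**Figure D4:**
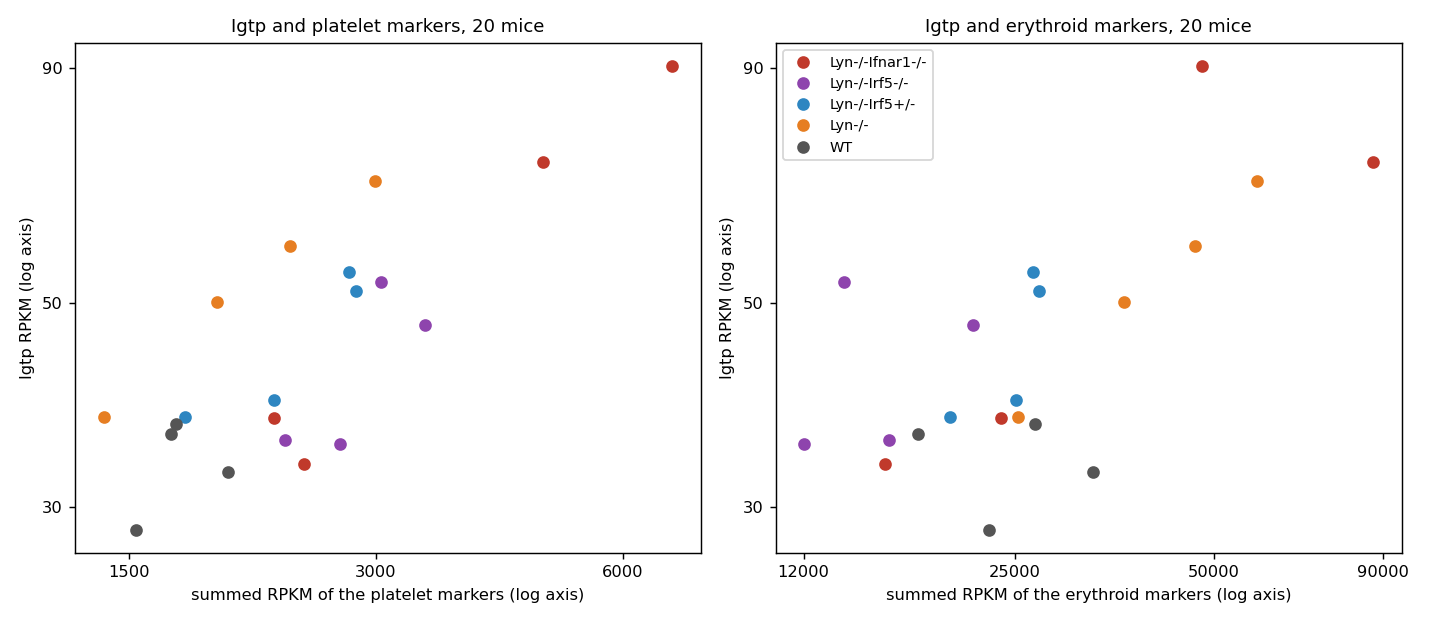
Igtp RPKM (vertical axes, log scale) against the summed RPKM of 4 platelet markers (left) and 3 erythroid markers (right, log scales) in the 20 mice, by genotype. Lyn-/-Ifnar1-/- mice 3 and 4 hold the highest Igtp values, 71.2 and 90.6 RPKM, and the highest platelet sums, 4802 and 6900 RPKM. Both axes carry the scaling of each library.

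Irgm1, Irgm2 and Iigp1 moved with the summed plasmacytoid dendritic cell markers (r = 0.75, 0.79 and 0.69, adjusted permutation p = 0.0038, 0.0015 and 0.011 over the 77 relations). Here too the mice were shuffled across genotypes, so the p values do not set aside differences between genotypes. Both levels again carry the scaling of their library. Without the 2 farthest mice, Lyn-/-Ifnar1-/- mice 3 and 2, r was 0.62, 0.76 and 0.74, and within genotypes it was 0.19, 0.17 and 0.01. That sum rested on Bst2, itself a type I IFN-stimulated gene, at 3.64 to 10.04 RPKM in Lyn-/-Ifnar1-/- mice and 15.8 to 22.4 RPKM in Lyn-/- mice. The other 2 listed markers, Tcf4 and Ccr9, summed to 1.38 to 1.72 RPKM in Lyn-/-Ifnar1-/- mice and 0.953 to 1.68 RPKM in Lyn-/- mice, and with Bst2 left out r was 0.21 for Irgm1, 0.44 for Irgm2 and 0.39 for Iigp1 (permutation p = 0.366, 0.0535 and 0.0858, unadjusted).

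Of 9 other immunity-related GTPase genes on a list, 3 were in the table and 2 were tested. Gm12250 averaged 2.46 ± 0.186 RPKM in Lyn-/-Ifnar1-/- mice and 4.00 ± 1.13 RPKM in Lyn-/- mice (SD, 4 mice each, limma adjusted p = 0.0784). It was lower in Lyn-/-Ifnar1-/- than in Lyn-/-Irf5-/- mice, which averaged 5.32 ± 0.689 RPKM (-0.97 ± 0.19 SE on the log2 scale, limma adjusted p = 0.0069).

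Guanylate binding proteins, the larger IFN-induced GTPases that act on the same vacuoles, divided in Lyn-/-Ifnar1-/- against Lyn-/- mice. Of 8 tested genes, Gbp6 and Gbp7 were lower, Gbp4 was higher and 5 were not called, with a median log2 fold change of 0.07. Gbp7 averaged 1.79 ± 0.822 RPKM in Lyn-/-Ifnar1-/- mice and 4.48 ± 1.32 RPKM in Lyn-/- mice (-1.16 ± 0.25 SE on the log2 scale, limma adjusted p = 0.0073). Gbp4 averaged 4.37 ± 0.721 RPKM in Lyn-/-Ifnar1-/- mice and 2.43 ± 0.191 RPKM in Lyn-/- mice (0.72 ± 0.16 SE on the log2 scale, limma adjusted p = 0.0092). Gbp4 was also lower in Lyn-/- than in WT mice (log2 fold change -0.98, limma adjusted p = 9.17e-05). Gbp9 was higher in Lyn-/-Irf5-/- than in Lyn-/- mice (log2 fold change 0.90) and in Lyn-/-Irf5+/- than in Lyn-/- mice (0.65).

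Type I IFN-stimulated genes, from a list of textbook members, were lower nearly throughout in Lyn-/-Ifnar1-/- against Lyn-/- mice. Of 30 tested, 28 were lower and none was higher, with a median log2 fold change of -2.27 beside -0.62 for the 7 genes and 0.02 for all genes. Irf7, the factor that amplifies type I IFN, averaged 7.40 ± 1.74 RPKM in Lyn-/-Ifnar1-/- mice and 669 ± 309 RPKM in Lyn-/- mice (SD, 4 mice each), -6.29 ± 0.28 (SE) on the log2 scale. Of these 30 genes 20 were higher and none lower in Lyn-/- against WT mice, with a median of 1.12, beside 1 of 7 and 0.22 for the immunity-related GTPases. No test set one list against another.

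Genes known for their response to IFN-γ did not fall together. Of 17 tested, 4 were higher (Cd74, H2-Aa, H2-Ab1 and H2-Eb1, all of class II antigen presentation), 1 was lower (Fcgr1, a receptor for IgG) and 12 were not called in Lyn-/-Ifnar1-/- against Lyn-/- mice, with a median log2 fold change of 0.10. H2-Ab1, a class II MHC chain and the gene with the smallest p on this list over the 10 comparisons, averaged 110 ± 16.2 RPKM in Lyn-/-Ifnar1-/- mice and 58.6 ± 6.71 RPKM in Lyn-/- mice (0.90 ± 0.16 SE on the log2 scale, limma adjusted p = 0.0013). B cells carry class II, and their markers summed to 56.3 to 114 RPKM in Lyn-/-Ifnar1-/- mice and 40.1 to 61.1 RPKM in Lyn-/- mice, and their part in the H2-Ab1 difference was not tested. Ifngr1, the ligand-binding chain of the IFN-γ receptor, was higher in Lyn-/- mice (77.9 ± 14.1 RPKM) than in WT mice (35.6 ± 2.33 RPKM, log2 fold change 1.10, SE 0.15, limma adjusted p = 1.11e-05).

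**Figure D5:**
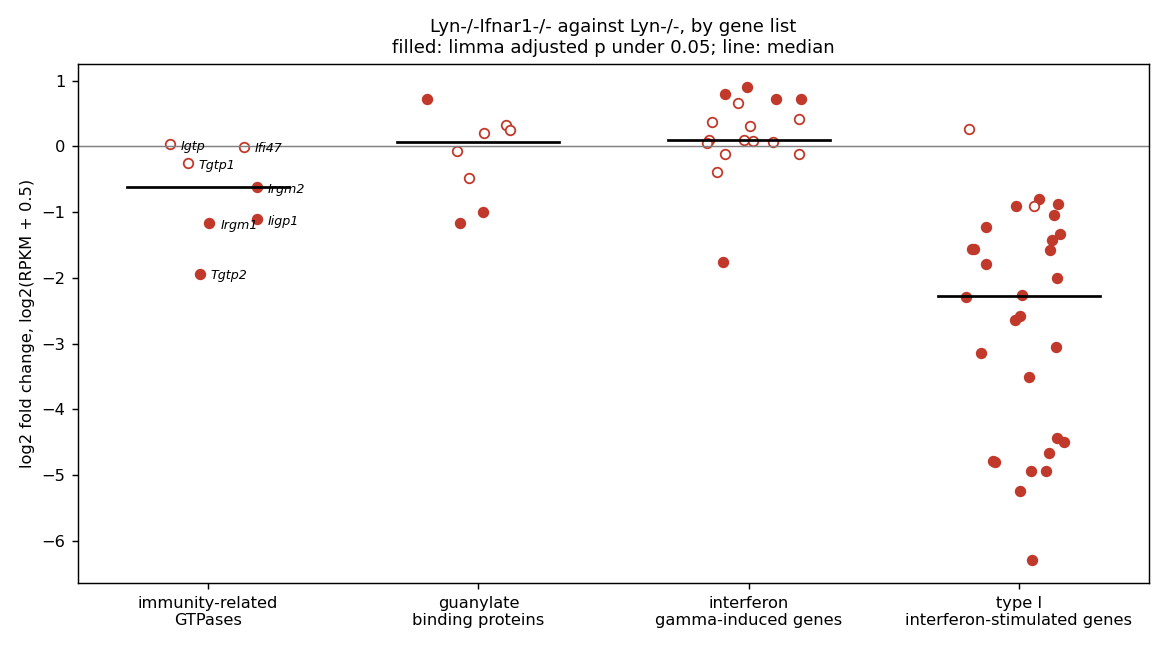
Log2 fold change of Lyn-/-Ifnar1-/- against Lyn-/- mice (vertical axis) for each tested gene of 4 lists, filled where the limma adjusted p was under 0.05, with the median of each list as a line. The 7 immunity-related GTPases had a median of -0.62, between 0.07 for 8 guanylate binding proteins and 0.10 for 17 IFN-γ-induced genes above and -2.27 for 30 type I IFN-stimulated genes below.

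The autophagy conjugation genes had a median of -0.04 in Lyn-/-Ifnar1-/- against Lyn-/- mice, with none of 10 called by limma or by limma-voom, and 2 at an unadjusted p under 0.05. In Lyn-/- against WT mice 2 of 10 were higher, Atg7 (log2 fold change 0.95) and Atg12 (0.94), where 17.1% of all genes were higher. Of 6 tested adaptor and ubiquitin genes of the vacuole, 4 were higher in Lyn-/- than in WT mice (Sqstm1, Tax1bp1, Nbr1 and Optn, median of the 6 1.17), and the same genes were lower in Lyn-/-Irf5-/- than in Lyn-/- mice (median -1.43), a pair of comparisons that share the Lyn-/- mice. Of the 3 erythroid markers, Slc4a1 and Tspan33 were also higher in Lyn-/- than in WT mice (median of the 3 1.48) and lower in Lyn-/-Irf5-/- than in Lyn-/- mice (median -2.74), and their part in these differences was not tested. Sqstm1, the adaptor p62, averaged 65.1 ± 9.11 RPKM in Lyn-/-Irf5-/- mice and 317 ± 119 RPKM in Lyn-/- mice (-2.21 ± 0.34 SE on the log2 scale, limma adjusted p = 0.0006), while none of the 7 immunity-related GTPases was lower in that comparison.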

How the data were processed

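Peripheral blood RNA of 20 mice had been sequenced from strand-specific libraries. Per the labels, the authors used bcl2fastq, STAR, featureCounts and edgeR with the mm10 genome. The deposited table holds RPKM, which the authors scaled between libraries by TMM, for 9228 genes. The annotation, the treatment of reads that match several genes and the filter on listed genes are not given in the sources used here. The members and gene lists were chosen with earlier results of these data known.

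Values of 9222 of the 9228 genes came out as whole reads within 0.001 of a read, after a common divisor of 2 to 4 shared by every count had been taken out of 10 libraries, and counting error is largest where reads are few. Genotypes were compared with limma 3.58.1 (R 4.3.3, trend in the variance) on log2(RPKM + 0.5), with all 20 libraries in 1 model, for 8696 genes at 1 RPKM or more in at least 4 libraries. P values were adjusted by Benjamini-Hochberg over all genes in each of 10 comparisons. Within-library ratios and sums were tested by exact permutation (two-sided) on the log2 scale, with 0.5 added to each RPKM or sum. Relations to markers were tested by 100000 permutations of the 20 mice across genotypes (scipy 1.17.1). Libraries within a genotype correlated at 0.913 to 0.984 and no pair was identical. Alternatives covered the pseudocount, filter, scaling, model, variance, a replicate block and leaving out mice. Named were the 7 genes, Lyn, Irf5, Ifnar1, up to 4 genes per list with the smallest p, markers given beside a result and the genes most alike. Outside this rule, Rnf19b, B2m, Ap3s1, Fcgr1, Bst2 and the joined motif were picked after their values were seen. Some items of the gene and marker lists are not reported here, and the sums and counts were computed without them.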

Additional observations from a re-analysis of the deposited data

Results flagged for a closer look

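In 2 of 35 groups of 4 mice, 1 mouse lay far from the other 3 by Dixon's criterion, which flags about 1 group in 20 by chance. Lyn-/-Irf5-/- mouse 3 held 3.66 RPKM of Tgtp1 and 11.5 RPKM of Tgtp2, above the other 3 mice of its genotype (2.86 to 2.96 and 7.34 to 8.0 RPKM). Both genes share most of their sequence, so these are not separate observations.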

How the results depend on the processing

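The 22 called values of the 7 genes kept their direction under all 717 alternatives, and 645 of these kept the call. Many alternatives cannot move a fold change, such as another filter or variance model, or leaving out a mouse of a genotype not compared. For those the direction was fixed beforehand, so the count of 717 does not measure how firm it is. Counts of called genes of the 7 moved by more than 1.5 times as follows. In Lyn-/- against WT mice (1 in the main model) the count was 0 with a pseudocount of 0.1, with both sum scalings (equal RPKM sums, over all genes or leaving out hemoglobin genes), and 2 with only the 2 genotypes, array weights, limma-voom on reads or Lyn-/-Ifnar1-/- mice 3 and 4 left out. In Lyn-/-Ifnar1-/- against Lyn-/- mice (4) it was 1 under both sum scalings and with only the 2 genotypes. Against Lyn-/-Irf5+/- mice (5) it was 3 with a filter of 5 RPKM or with equal sums leaving out hemoglobin, 1 with equal sums or only the 2 genotypes and 2 without mice 3 and 4. Against WT mice (4) it was 1 with equal sums and 2 without mice 3 and 4. In Lyn-/-Irf5+/- against Lyn-/- mice (1) it was 0 with a pseudocount of 0.1, the 5 RPKM filter, which removes Iigp1 and Tgtp1, both sum scalings and only the 2 genotypes. In Lyn-/-Irf5-/- against Lyn-/- mice (1) it was 0 with that filter and 4 with equal sums leaving out hemoglobin. Against WT mice it was 0 with that filter in both Irf5 genotypes, 0 under both sum scalings in Lyn-/-Irf5+/- and 2 with array weights in Lyn-/-Irf5-/- mice. Other than for that filter, the cause was not tested.

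Leaving out each mouse gave 0 to 2 calls in Lyn-/- against WT, 3 to 4 in Lyn-/-Ifnar1-/- against Lyn-/-, 4 to 5 against either Irf5 genotype, 3 to 5 against WT, 0 to 1 in each Irf5 genotype against Lyn-/-, 1 in each against WT and 0 between them.

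Over all 70 values of the 7 genes, 67 of 2290 alternatives turned the sign, none of them for a called value or past the threshold. The 2290 also hold the alternatives that cannot move a fold change. In Lyn-/- against WT mice Tgtp1 was 5.9e-05 with a pseudocount of 1, 0.014 with median-of-ratios scaling and 0.11 with array weights, Ifi47 was 0.037 with array weights, Irgm1 was -0.021 with equal sums and -0.35 with equal sums leaving out hemoglobin, and Iigp1 was -0.10 with that last sum. In Lyn-/-Ifnar1-/- against Lyn-/- mice Igtp was -0.18 with equal sums, -0.41 with array weights and -0.55 without mice 3 and 4, and Ifi47 was 0.0062 with equal sums leaving out hemoglobin. In Lyn-/-Ifnar1-/- against Lyn-/-Irf5-/- mice Igtp was -0.41 with equal sums, -0.34 leaving out hemoglobin, -0.073 with array weights and -0.24 without mice 3 and 4. In Lyn-/-Irf5-/- against Lyn-/- mice Tgtp2 (-0.52) turned to 0.002 and 0.14 and Igtp (-0.31) to 0.23 and 0.38 under the 2 sum scalings, and in Lyn-/-Irf5+/- against WT mice Igtp and Ifi47 (0.43 each) turned to -0.069 and -0.061 with equal sums. With single mice left out, Irgm2 ran from -0.10 to 0.039, Tgtp1 from -0.18 to 0.20 and Ifi47 from -0.20 to 0.086 in Lyn-/- against WT mice, and Igtp from -0.22 to 0.26 and Ifi47 from -0.15 to 0.14 in Lyn-/-Ifnar1-/- against Lyn-/- mice.

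The sum scalings moved the median of all genes by -0.63 (equal sums, Lyn-/-Ifnar1-/- against Lyn-/-Irf5-/- mice) to 0.67 (equal sums, Lyn-/-Irf5-/- against Lyn-/-Irf5+/- mice) on the log2 scale. The deviations of same-numbered mice correlated at 0.015 to 0.50 (median 0.10) for number 1, and at -0.24 to 0.33 for the others (medians -0.026 to -0.0054). All 5 mice of number 1 correlated best with their own number, but only 7 of the 20 mice in all did, and not every pair was above 0.1, so the numbers were not taken as pairs. A replicate block gave 0 calls in Lyn-/-Irf5+/- against Lyn-/- mice and left the other 9 counts within 1.5 times. Depth limits Iigp1 and Tgtp1 most, with as few as 3 and 4 reads per mouse, and Tgtp2 fell to 7 reads in 1 mouse.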
